A study of Mus musculus with 14 samples.

Results

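The interfollicular epithelium (IFE) is the epidermis between the hair placodes, and its pools were compared here by the code in their titles. In this design each library of dorsal skin epithelium belongs to 1 of 2 fractions, and 7 of the 14 libraries are IFE. They were taken by their labelled fraction and by title, as 3 libraries whose code starts with 27-7 (27-7-2, 27-7-3 and 27-7-4) and 4 with other codes (11-5-2, 17-5, 18-5 and 1-6-3). The titles do not say what a code stands for, and a shared day, litter or batch cannot be told apart from the maturity of the embryos.

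All pools were wild-type C57BL/6JOlaHsd embryos at E14.5, the same in both groups, with no treatment named. Dorsal skin epithelium of 3 to 4 littermates was pooled, and the cells that an antibody against the adhesion molecule MAdCAM-1 did not stain were sorted as IFE. A pool can hold embryos of both sexes and of slightly different maturity, and any cell without the stain can be in this fraction. Nothing in the labels says that the 3 pools with code 27-7 came from separate litters, so a p-value here reflects only how much these pools vary, which may be partly technical.

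The embryonic epidermis at this stage is stratifying. Basal keratinocytes sit on a basement membrane, divide, and express Krt5 and Krt14, while their daughters move up and switch to Krt1 and Krt10. A flat outer layer, the periderm, covers the surface until the barrier forms, and Wnt, Eda, FGF and BMP signals place hair placodes at intervals in the sheet. Differences in maturity between litters would be looked for among the genes of these layers and signals.

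No gene differed between the 27-7 pools and the other IFE pools past the adjusted threshold. Of 15813 genes tested, 0 passed an adjusted p of 0.05 (edgeR quasi-likelihood F test with Benjamini-Hochberg adjustment; 0.00% called), and the smallest adjusted p was 0.6804. DESeq2 called 4 genes on the same libraries and limma-voom called 0. At an unadjusted p under 0.05 there were 813 genes (5.14%), of which 447 were higher (2.83%) and 366 lower (2.31%) in the 27-7 pools. The CPM of both groups, which are counts scaled to the size of each library, did not overlap for 1057 genes (6.68%), with 633 higher (4.00%) and 424 lower (2.68%).

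The level of a gene set how narrow its interval was. For 7101 of the 7141 genes with a mean of 10 to 100 CPM (99.4%), the 95% interval of the difference lay within 1 log2 unit, a 2-fold change, on either side of 0. The same held for 2122 of the 2161 genes at 100 CPM and over (98.2%). Their median half-widths were 0.294 and 0.247 on the log2 scale. Below 1 CPM the interval was this narrow for 1 of 2781 genes, with a median half-width of 1.595, so that a 2-fold difference of a rare transcript was not detectable in these libraries. The median difference over all genes was 0.002, and the common coefficient of variation between pools was 0.205.

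**Figure D1:**
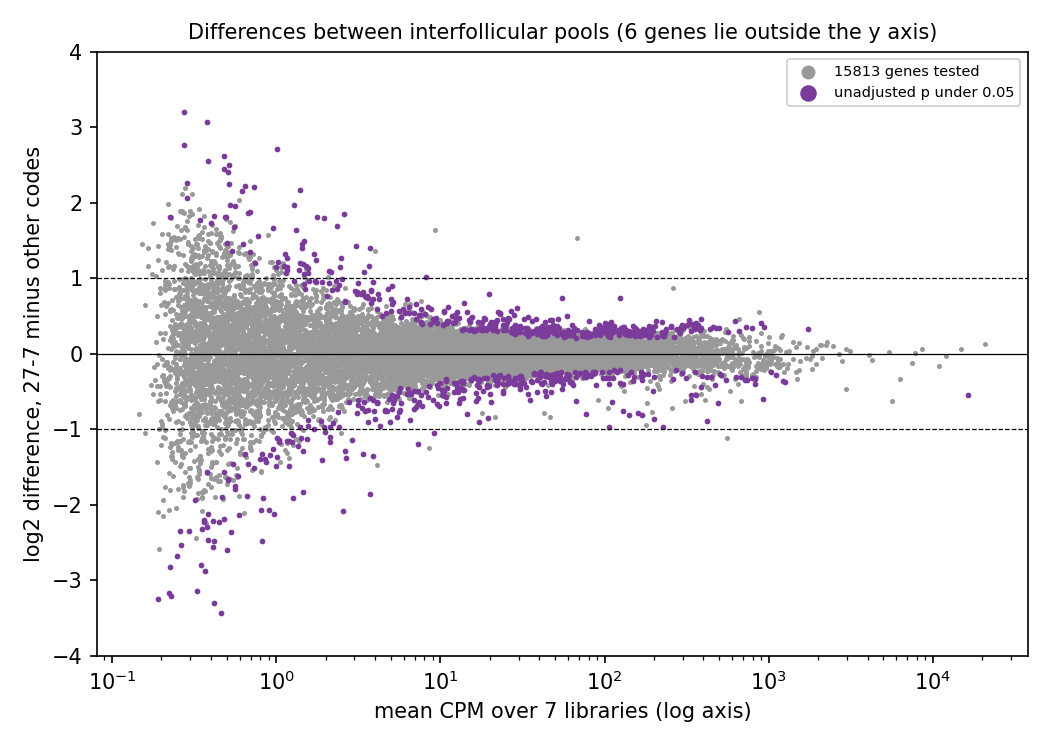
Log2 difference of each tested gene (27-7 minus other codes, vertical axis) against its mean CPM over 7 IFE libraries (horizontal log axis), with the 813 genes at an unadjusted p under 0.05 in purple and dashed lines at 1 log2 unit. Genes above 10 CPM lie in a narrow band around 0, the spread widens below 10 CPM, and 6 genes lie outside the axis.

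The libraries did not group by code. IFE totals lay between 34395096 and 36029798 counts in the 27-7 pools and between 23821288 and 39478044 counts in the others. The 11-5-2 pool was the shallowest and lay alone on the first principal component, and the 18-5 pool lay alone on the second. Over pairs of libraries the SD of the log2 differences was 0.597 to 0.685 within the 27-7 pools, 0.593 to 0.904 within the others, and 0.546 to 0.882 between both groups. The ranges within and across the codes overlapped.

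**Figure D2:**
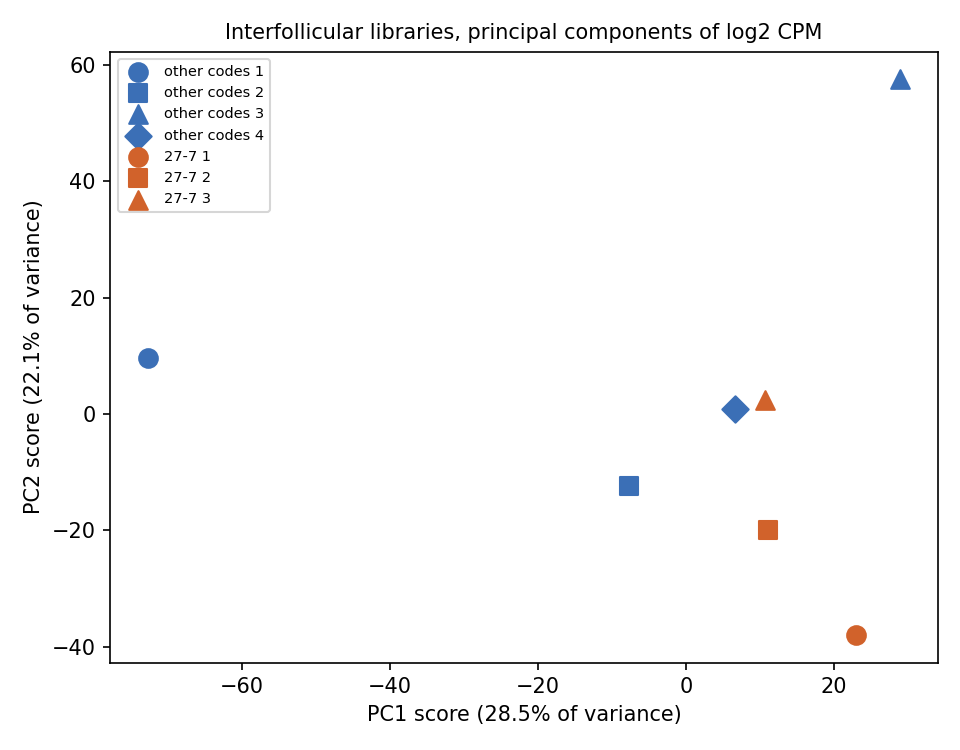
Scores of the 7 IFE libraries on the first (28.5% of the variance, horizontal) and second (22.1%, vertical) principal components of log2 CPM, with 27-7 pools in orange and other-code pools in blue. The 11-5-2 pool (other codes 1) lies at -72.66 on the first component and the 18-5 pool (other codes 3) at 57.52 on the second, while 27-7-4 and 1-6-3 lie beside each other.

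Markers of the epidermis were high and the sorted antigen was near 0 in all 7 IFE libraries. Krt5, a keratin of basal cells (ENSMUSG00000061527; GRCm38 chromosome 15, 101707070 to 101712898, minus strand), had 2501, 2828, 3270 and 2854 CPM in the other-code pools and 2673, 2346 and 2983 CPM in the 27-7 pools. These ranges overlapped, with a difference of -0.10 on the log2 scale (95% interval -0.38 to 0.17). Madcam1, which encodes the sorted antigen, lay between 0.168 and 0.689 CPM in the other-code pools and was 0.624, 0.609 and 1.23 CPM in the 27-7 pools. In the stained fraction of the same pools, scaled within that fraction, Madcam1 averaged 39.2 and 60.9 CPM. The IFE difference of Madcam1, 1.18 on the log2 scale, had an interval from -0.27 to 2.64 and an adjusted p of 0.94 (edgeR).

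Genes of the basal layer lay around 0. Of 20 basal genes tested, 0 passed the adjusted threshold, 10 were above and 10 below a difference of 0, and their median was -0.005, beside 0.002 over all genes. Krt14, the partner of Krt5 in the basal filament, averaged 1282 ± 167 CPM in the 27-7 pools (SD, n = 3) and 1261 ± 62.4 CPM in the others (SD, n = 4). The interval of its difference ran from -0.22 to 0.27. At an unadjusted p 2 basal genes were lower (2.31% of all genes were), Sfn and Krt8. With an offset for exonic length, added after seeing the data, 0 were lower at that p, where 328 of all genes were. Sfn, the 14-3-3 protein sigma of keratinocytes, had 322, 332 and 387 CPM against 353 to 474 CPM, which overlapped, and Krt8, a keratin of simple epithelia, was under 2 CPM in all 7.

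The transcripts of the layers above had lower means in the 27-7 pools for most members, none past the adjusted threshold. Of 25 suprabasal and spinous genes tested, 20 lay below 0 and 5 above, with a median of -0.12, and 4 were lower at an unadjusted p (2.31% of all genes were). With 1 library left out the median was larger without 27-7-4 (-0.221) or 11-5-2 (-0.219) and smaller without 1-6-3 (-0.058), 27-7-3 (-0.067) or 18-5 (-0.072). Krt1 (ENSMUSG00000046834; chromosome 15, 101845426 to 101850794, minus strand), the first keratin of the spinous cell, had 651, 757, 779 and 934.5 CPM in the other-code pools and 771, 586 and 746 CPM in the 27-7 pools. Krt10, its partner, had 1332, 1339, 1765 and 1873 CPM against 1369, 1142 and 1484 CPM. Both pairs of ranges overlapped, and the intervals of the differences ran from -0.46 to 0.15 for Krt1 and from -0.57 to 0.08 for Krt10.

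The 4 suprabasal genes at an unadjusted p were Calml3, Lgals7, Dsc1 and Dsg1a. Calml3, a calmodulin-like protein of differentiating keratinocytes, had 5.54, 5.17 and 4.94 CPM against 6.04 to 10.9 CPM. It was the 1 of 25 suprabasal genes whose groups did not overlap (2.68% of all genes were lower without overlap). Lgals7 encodes galectin-7 of stratified epithelia (ENSMUSG00000053522; chromosome 7, 28863853 to 28866284, plus strand). It had 116, 166, 225 and 187 CPM in the other-code pools and 88, 66.3 and 142 CPM in the 27-7 pools, a difference of -0.81 (95% interval -1.39 to -0.24). The 27-7-4 pool lay inside the range of the other codes for Lgals7 and for Dsc1, a desmosomal cadherin of the spinous layer, at 66.5 CPM against 61.9 to 79.9 CPM.

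Later differentiation genes also lay mostly below 0. Of 14 cornified envelope genes that passed the filter on low counts, of 19 in the table, 9 lay below 0. Their median was -0.129, and 0 had an unadjusted p under 0.05. The median was 0.024 without 27-7-3, 0.02 without 1-6-3, -0.024 without 27-7-4, -0.054 without 27-7-2 and -0.067 without 18-5. Lor, the loricrin of the cornified cell, had 5.75 to 13.7 CPM in the other-code pools and 8.69 to 12.5 CPM in the 27-7 pools, and so was at a low level in all 7. Of 13 periderm genes tested, 12 lay below 0, with a median of -0.193. Krt4 alone was lower at an unadjusted p under 0.05 (2.31% of all genes were), at 12.5, 10.04 and 8.58 CPM against 10.8 to 16.5 CPM. Of 23 barrier lipid genes, 20 lay below 0 and 0 had an unadjusted p under 0.05. Desmosomes and junctions had 1 of 30 lower at that p, Dsc3 (2.31% of all genes were). Differentiation transcription factors had 0 of 30, and the medians of both lists were -0.041 and 0.023.

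In the placode-enriched fraction of the same pools, the suprabasal list had a median of -0.153 and the periderm list of -0.32. Other lists, given below, had medians of opposite sign between the fractions. Both fractions come from the same pools, so like values in them are not independent. Krt1 averaged 44.7 CPM in the 27-7 and 70.1 CPM in the other-code placode libraries, a difference of -0.65 on the log2 scale beside -0.16 in IFE. The difference of both, 0.47 (95% interval 0.13 to 0.80), did not pass adjustment (edgeR interaction, adjusted p = 0.93).

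**Figure D3:**
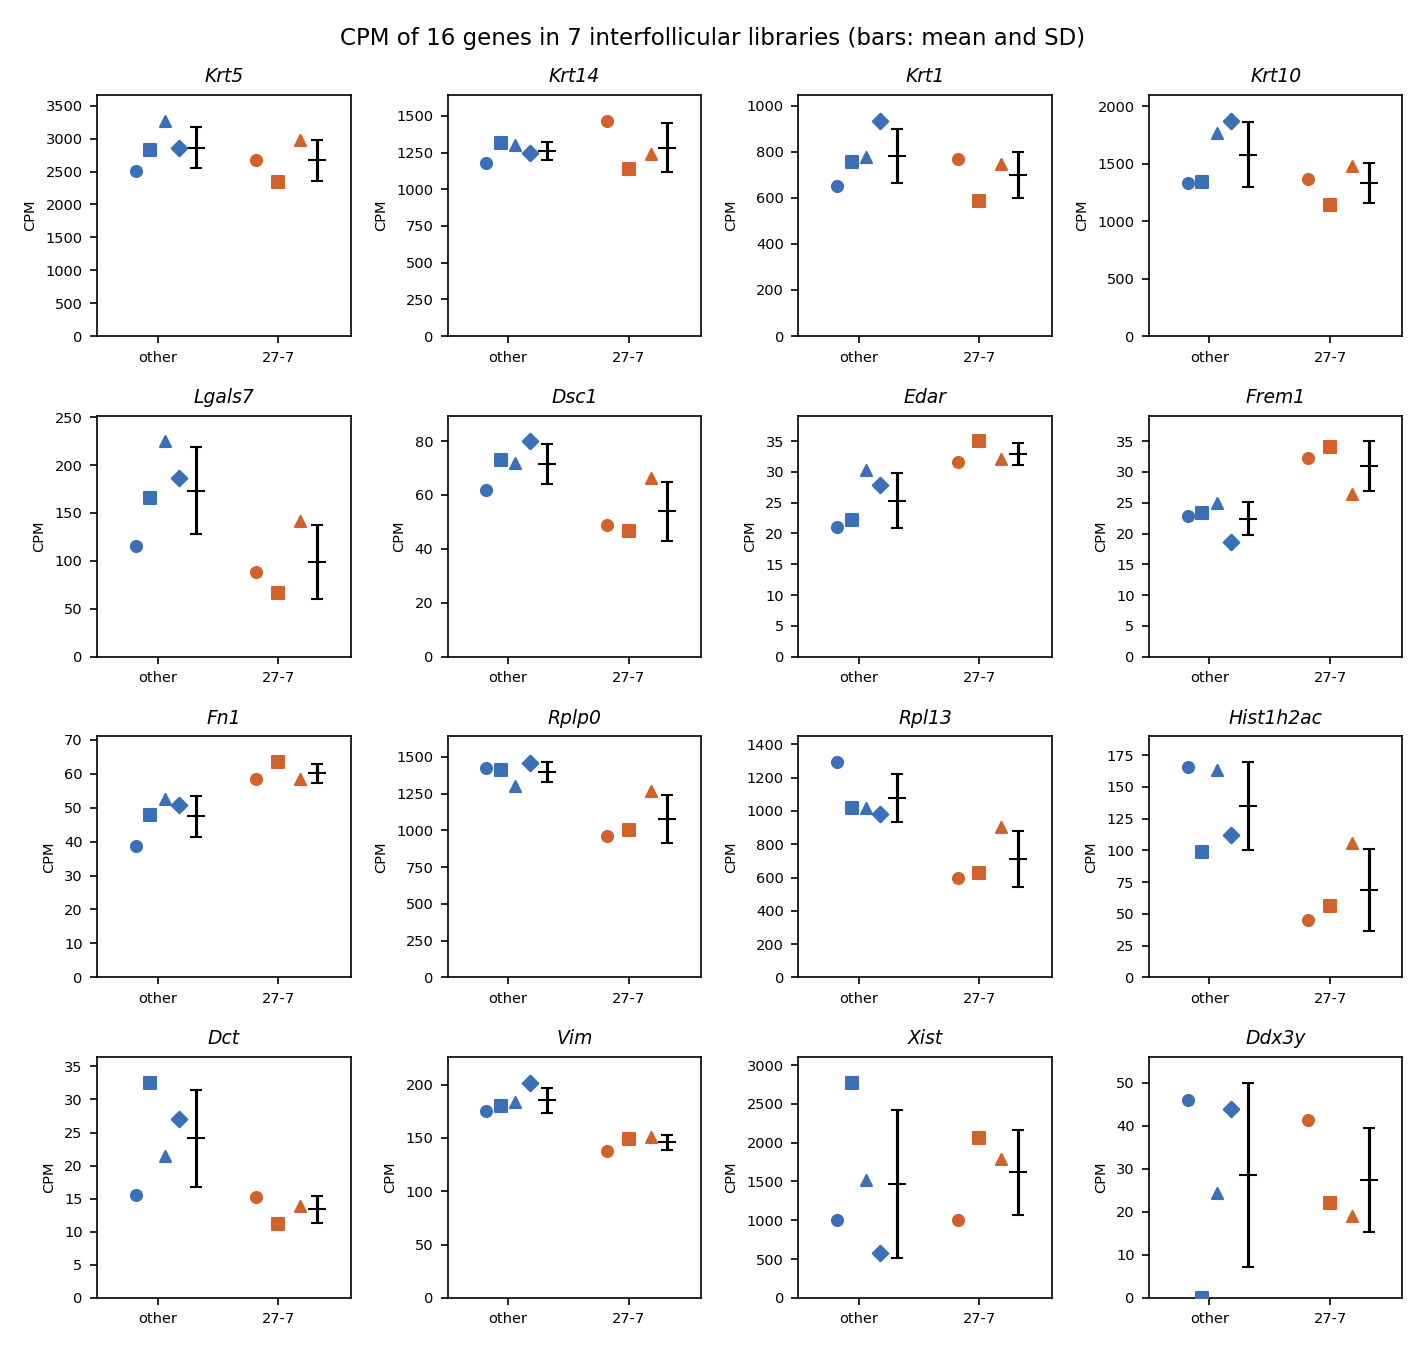
CPM of 16 genes in each IFE library (vertical axes from 0), with other-code pools in blue, 27-7 pools in orange, and the mean with SD in black beside each group (n = 4 and n = 3). The keratins overlap between the groups, Edar, Frem1, Fn1 and Vim do not, and in Lgals7 and Hist1h2ac 1 of the 27-7 pools lies among the others.

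Hair placode genes had higher means in the 27-7 pools for most members. Of 25 tested, 19 lay above 0, with a median of 0.219, and at an unadjusted p 4 were higher and 1 lower (2.83% and 2.31% of all genes were). The 4 were Bmp2, Edar, Dkk4 and Sox21. The groups did not overlap for 2 of the 25, Bmp2 and Edar (4.00% of all genes were higher without overlap). The lower gene was Wnt10a. None passed the adjusted threshold.

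Bmp2 encodes a BMP ligand made by placodes (ENSMUSG00000027358; chromosome 2, 133552159 to 133562885, plus strand). It had 29.4, 46.3, 50.2 and 39.7 CPM in the other-code pools and 57.7, 58.6 and 53.1 CPM in the 27-7 pools. All 27-7 pools were above all others, by 0.45 on the log2 scale (95% interval 0.11 to 0.78). Edar, the receptor of the ectodysplasin signal, had 21, 22.2, 30.2 and 27.9 CPM against 31.6, 34.9 and 32 CPM. Dkk4, a secreted Wnt inhibitor, overlapped at 1 library, with 16.8 to 28.8 CPM against 30.3, 37.1 and 25.1 CPM. Wnt10a, a Wnt ligand, had 43.7 to 66.4 CPM against 44.6, 37.5 and 46.9 CPM.

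These genes were several times more abundant in the stained fraction, where the 27-7 libraries averaged 193 CPM for Bmp2, 225 CPM for Edar and 287 CPM for Dkk4. Shh, the Hedgehog ligand of the placode, averaged 131 CPM there in the 27-7 and 87.7 CPM in the other-code libraries. In IFE it had 3.09, 1.49, 1.11 and 1.38 CPM in the other-code pools and 2.39, 1.72 and 2.81 CPM in the 27-7 pools, with the highest value in 11-5-2. Lhx2, a placode transcription factor, was below 1.5 CPM in each IFE library, at 0.434, 0.470 and 0.389 CPM in the 27-7 pools and 0.337 to 1.41 CPM in the others. The part of stray placode cells in the IFE values was not tested. The placode list's median was 0.104 without 11-5-2 and 0.108 without 17-5. It was 0.016 without both 11-5-2 and 27-7-4, a choice made after seeing the data.

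The signalling lists held few members at an unadjusted p. Among 21 tested Wnt targets and feedback genes 16 lay above 0 (median 0.104), and 2 were higher at an unadjusted p (2.83% of all genes were), Dkk4 and Rnf43, a ligase that removes Wnt receptors. The median was 0.043 without 17-5, 0.047 without 11-5-2 and 0.226 without 18-5. Rnf43 had 67.2 to 108 CPM against 118, 124 and 107 CPM. Of 13 Wnt ligands 10 lay below 0 (median -0.093). Axin2, a common readout of Wnt signalling, had 136 to 220.5 CPM in the other-code pools and 179, 181 and 210 CPM in the 27-7 pools, well inside that range.

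The Eda and NF-kB list had 12 members above and 9 below 0 of 21 tested (median 0.122), and the median was 0.033 without 18-5, 0.049 without 27-7-4, 0.05 without 27-7-3 and 0.061 without 11-5-2. It summed to 1205, 1176 and 1206 CPM in the 27-7 pools and to 1040 to 1137 CPM in the others, without overlap. In 4 genes the 27-7 pools lay above all others (4.00% of all genes did), and in 2 the unadjusted p was under 0.05 (2.83% higher over all genes), namely Edar and Icam1, an adhesion molecule induced by NF-kB. Icam1 had 44.5 to 53.5 CPM against 58.3, 56.8 and 62.1 CPM.

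The FGF, EGF and ERK feedback list had 16 members above and 12 below 0 of 28 tested (median 0.058, which was 0.03 without 18-5 and 0.093 without 27-7-3). Its sum was higher without overlap but by a small gap, at 2213, 2255 and 2179 CPM against 2047 to 2163 CPM. Of all 46 lists, only this list and the Eda, ribosomal protein and leukocyte lists had sums without overlap. Among single genes 6.68% had no overlap in either direction. In this list 3 members were higher and 1 lower without overlap (4.00% and 2.68% of all genes were). Of the 28, 2 were higher at an unadjusted p (2.83% of all genes were). They were Spry1, with 35.8 to 45.6 CPM against 49.7, 52.6 and 46.8 CPM, and Dusp6, with 69.5 to 90.5 CPM against 92.3, 95.9 and 95.1 CPM. Both encode inhibitors that ERK signalling induces.

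Within the BMP and TGF-beta list 2 of 28 genes were higher at an unadjusted p (2.83% of all genes were), Bmp2 and the receptor Bmpr2. Notch genes had 0 of 17 at that p and a median of 0.088, with the smallest p in Maml1, a coactivator of Notch. Retinoic acid genes had 1 of 12, lower (2.31% of all genes were), Crabp1, a retinoic acid binding protein. Crabp1 was under 1 CPM in each 27-7 pool and at 0.846 to 2.82 CPM in the others. Among 25 Hox genes 1 was higher, Hoxa6, and 1 lower, Hoxd8, at an unadjusted p (2.83% and 2.31% of all genes were). Hoxd8, a position gene, had 9.57 to 13.4 CPM against 6.11, 6.78 and 8.38 CPM.

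Egr1, an immediate-early transcription factor that ERK signalling and handling of tissue both induce, had 9.94, 11.2, 20.3 and 18.6 CPM in the other-code IFE pools and 27.7, 31.4 and 19.1 CPM in the 27-7 pools. The 27-7-4 pool lay inside the range of the others. The difference, 0.79 on the log2 scale (95% interval 0.27 to 1.32), stood beside 1.54 in the placode-enriched fraction. The immediate-early and dissociation list as a whole had a median of -0.052. Of its 23 genes 1 was higher and 1 lower (Ier5) at an unadjusted p (2.83% and 2.31% of all genes were).

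Genes of the basement membrane and matrix had higher means in the 27-7 pools for most members. Of 31 tested, 26 lay above 0 (median 0.102), 6 were higher at an unadjusted p (2.83% of all genes were), and in 8 the 27-7 pools lay above all others (4.00% of all genes did). None passed the adjusted threshold. Without 11-5-2 alone the median was 0.029. The summed CPM nevertheless overlapped, with 6883, 6663 and 6622 CPM against 5342 to 6636 CPM, and 30 of the 31 intervals lay within 1 log2 unit of 0.

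The 8 genes without overlap were Frem1, Fras1, Frem2, Grip1, Fn1, Lama5, Lamc1 and Thbs1. Frem1 (ENSMUSG00000059049; chromosome 4, 82897920 to 83052339, minus strand), Fras1 and Frem2 are matrix proteins that assemble at the epidermal basement membrane, and Grip1 is the adaptor that brings them to the cell surface. Frem1 had 22.8, 23.4, 24.9 and 18.6 CPM in the other-code pools and 32.3, 34.1 and 26.4 CPM in the 27-7 pools, a difference of 0.46 (95% interval 0.16 to 0.76). Grip1 had 33.9 to 38.5 CPM against 50.2, 45.2 and 41.7 CPM. In Fras1, at 492 to 650 CPM against 794, 741 and 668 CPM, and in Frem2, at 282 to 361 CPM against 438, 380 and 367 CPM, the groups did not overlap either.

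Fn1, the fibronectin gene, had 38.8, 47.9, 52.4 and 50.8 CPM in the other-code pools and 58.5, 63.4 and 58.4 CPM in the 27-7 pools. Lama5, the laminin chain of the epidermal basement membrane, had 342 to 542 CPM against 590, 566 and 544 CPM. Other basement membrane genes lay close to 0: Col4a1 differed by -0.05 and Col4a2 by 0.06 on the log2 scale. These transcripts are long, with a median exonic length of 7973 bases for the list against 4867 bases for all genes at 10 CPM and over. With an offset for exonic length, added after seeing the data, 3 of 31 were higher at an unadjusted p, and the median was 0.047. Over all genes 363 were higher at that p with the offset, in place of 447. Frem1 then differed by 0.35, Grip1 by 0.30, Fras1 by 0.19 and Frem2 by 0.12.

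The cell cycle lists lay near 0. Of 30 S phase genes 25 lay below 0 (median -0.087), 2 were lower at an unadjusted p (2.31% of all genes were), Cdc6 and Mcm3, which load and form the replicative helicase, and all 30 intervals lay within 1 log2 unit of 0. Mcm3 had 189 to 209 CPM against 150, 152 and 194 CPM, with 27-7-4 inside the other range. Of 30 genes of G2 and M phase 21 lay above 0 (median 0.052), and 1 was higher at an unadjusted p (2.83% of all genes were). It was Aurkb, the mitotic kinase Aurora B, at 76.2, 64.5 and 61.8 CPM against 48.6 to 61.9 CPM. All 30 of these intervals were within 1 log2 unit as well.

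Among inhibitors and D cyclins Gadd45g was higher and Btg1 lower at an unadjusted p, 1 each of 19. Among p53 targets Pmaip1 was lower at that p, 1 of 23 (2.83% of all genes were higher and 2.31% lower). Of 31 cholesterol and fatty acid synthesis genes 23 lay below 0 (median -0.104), and 3 enzymes of the sterol pathway were lower at an unadjusted p (2.31% of all genes were), Fdps, Msmo1 and Cyp51. Fdps had 40.7, 39.4, 30.7 and 39.8 CPM against 29.9, 27.8 and 25.4 CPM. Of the 31 genes 3 were lower without overlap (2.68% of all genes were), Fdps and Msmo1 among them. Glycolysis and hypoxia genes had a median of -0.001 over 34.

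Pgam1, a glycolytic mutase (ENSMUSG00000011752; chromosome 19, 41911923 to 41918660, plus strand), had 93.4, 87.6, 103 and 99.8 CPM in the other-code pools and 216, 169 and 96.8 CPM in the 27-7 pools. Only 27-7-2 and 27-7-3 stood above the others, and 27-7-4 lay among them. Its difference was 0.74 (95% interval 0.32 to 1.16), with an adjusted p of 0.94 (edgeR). Without 27-7-4 the difference was 1.002 at an adjusted p of 0.0289 (edgeR). That removal takes out the only 27-7 pool that overlapped, so this call is no support for a difference. Ldha, which makes lactate, was on the other side, with 444 to 482.5 CPM against 355, 442 and 423 CPM, and its interval, -0.41 to 0.06, held 0.

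Ribosomal protein transcripts had lower means in the 27-7 pools for nearly all members. Of 49 genes of the cytosolic ribosome 47 lay below 0 (median -0.195), 13 were lower at an unadjusted p (2.31% of all genes were) and 10 lay below all other-code pools (2.68% of all genes did), again with 0 past the adjusted threshold. Their sum was 43880, 40500, 38700 and 41160 CPM in the other-code pools and 35200, 34660 and 38160 CPM in the 27-7 pools, without overlap but by a small gap. The median in the placode-enriched fraction was -0.178.

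Rpl13, of the large subunit (ENSMUSG00000000740; chromosome 8, 123102350 to 123105244, plus strand), had 1294, 1017, 1015 and 983 CPM in the other-code pools and 598, 628 and 906 CPM in the 27-7 pools. The difference was -0.60 (95% interval -0.94 to -0.26), with 27-7-4 again closest to the other codes. Rplp0, of the ribosomal stalk, had 1304 to 1459 CPM against 965, 1003 and 1267 CPM, and Rps16, of the small subunit, 452 to 863 CPM against 350, 337 and 417 CPM. Ribosomal genes have many processed copies in the genome, and how reads were shared among copies is not given in the sources used here.

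Genes that make ribosomes lay closer to 0. Of 30 ribosome biogenesis and Myc target genes 18 lay below 0, with a median of -0.029, and Myc itself differed by 0.12. At an unadjusted p 1 of the 30 was higher (Nop16) and 2 lower, Dkc1 and Rrp9 (2.83% and 2.31% of all genes were). Of 38 nuclear genes of oxidative phosphorylation 32 lay below 0 (median -0.091). At an unadjusted p Sdhb and Ndufb8 were lower and Sdhc higher (2.31% and 2.83% of all genes were). The median of the 38 was -0.038 without 11-5-2 and -0.045 with an offset for exonic length. With that offset 2 of the 38 were higher and 2 lower at an unadjusted p, where 363 and 328 of all genes were. The genes of the mitochondrial genome differed by a median of -0.012 over 10 genes.

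**Figure D4:**
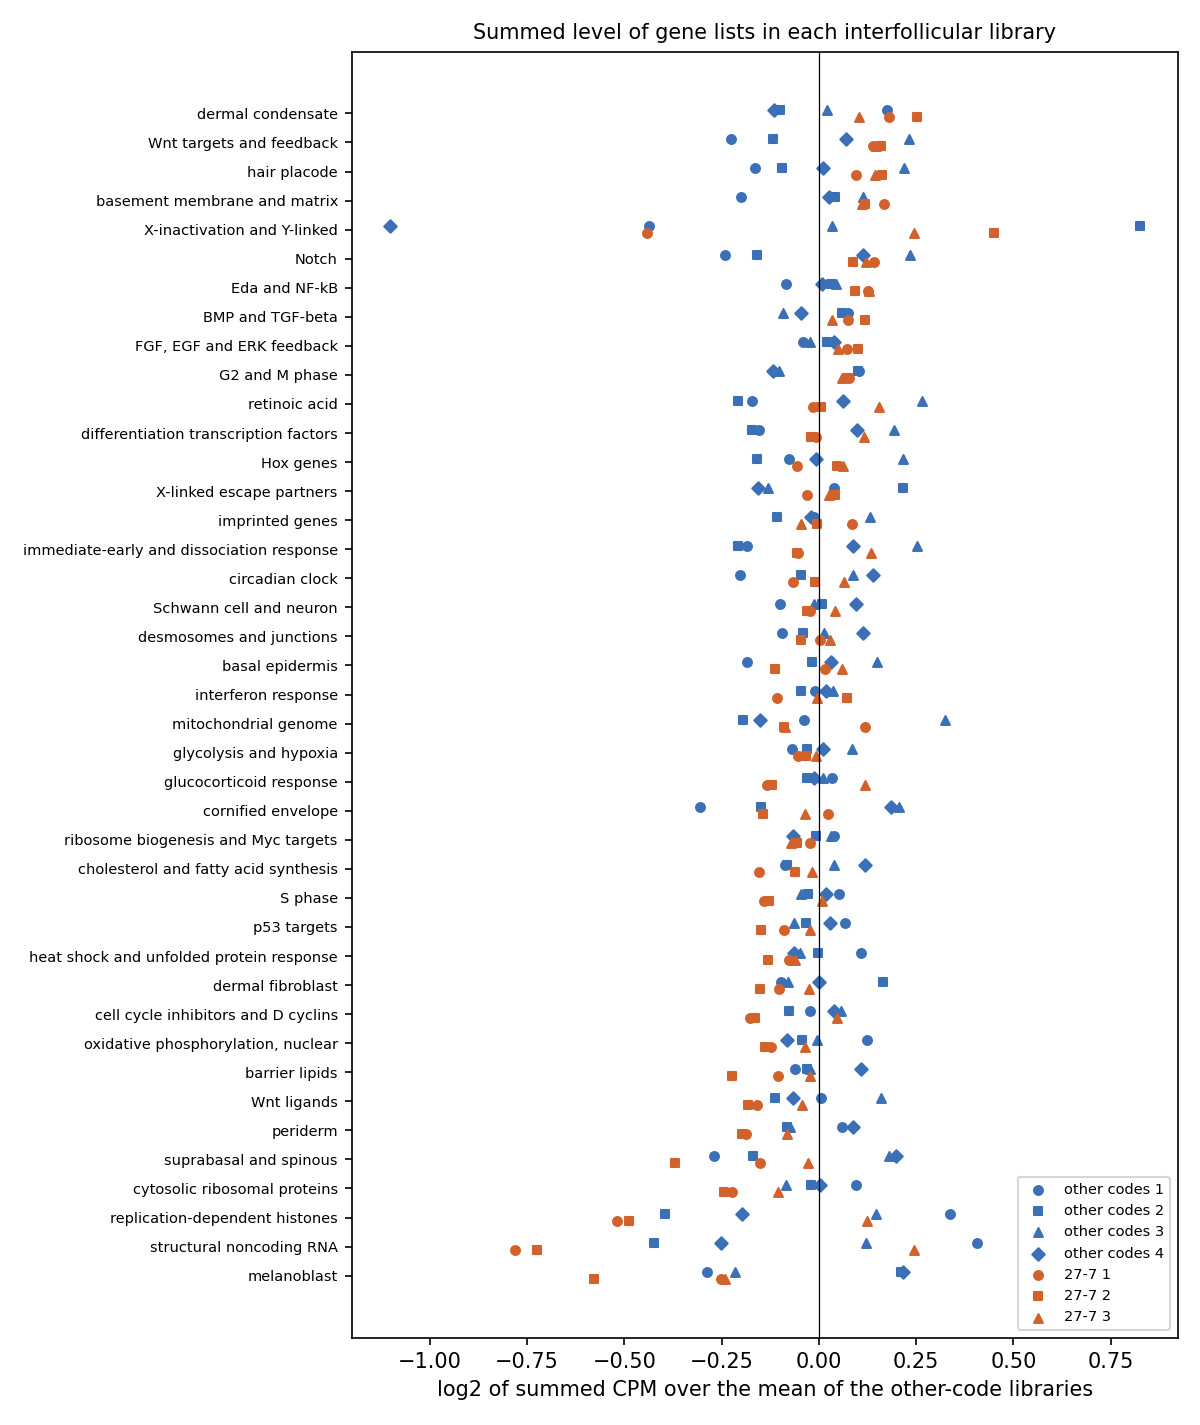
Summed CPM of 41 gene lists (rows, those with at least 25 CPM in each library) in each IFE library, as log2 of the ratio to the mean of the 4 other-code libraries (horizontal axis). Orange 27-7 points overlap blue points for most lists, the ribosomal proteins lie lower and the Eda and FGF lists higher without overlap, and in structural RNA and histones 27-7-4 lies apart from the other 27-7 pools.

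Short transcripts and RNA measures also differed between the pools, and their part in them was not tested. Structural noncoding RNA, such as the RNA parts of RNase P and RNase MRP, summed to 23980, 13480, 19670 and 15200 CPM in the other-code pools and to 10520, 10950 and 21430 CPM in the 27-7 pools. Rmrp had 4620 to 9252 CPM against 2445, 2880 and 7634 CPM. Thus in the sum and in Rmrp 27-7-2 and 27-7-3 were the lowest of all 7, and 27-7-4 the second highest. Not all members followed this order. Of 20 tested, 15 lay below 0 and 5 above, and Rn7sk had 650 CPM in 27-7-2 and 166 to 214 CPM in the other pools. Replication-dependent histones, whose messages lack a poly(A) tail, summed to 9068 to 15070 CPM against 8326, 8511 and 13010 CPM, again with 27-7-2 and 27-7-3 lowest and 27-7-4 among the highest 3.

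Of 23 histone genes 22 lay below 0 (median -0.338) and 7 were lower at an unadjusted p (2.31% of all genes were), none past the adjusted threshold. The median was -0.71 without 27-7-4 and -0.224 without 27-7-2. Hist1h2be (ENSMUSG00000047246; chromosome 13, 23583670 to 23621124, minus strand) had 179, 112.5, 190.2 and 146 CPM against 66.01, 80.9 and 132 CPM, with 27-7-4 inside the other range. With structural noncoding RNA as a covariate, the count of genes at an unadjusted p was 341 in place of 813, and the histone median was -0.07. The count was 670 with a score of Xist and Y-linked genes as covariate and 749 with melanoblast markers. Histone sums followed the structural RNA sums over the pools in nearly the same order, so a smaller histone median was built into that fit. The part of RNA composition was not tested.

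The difference between the codes also ran with the length of the transcript. Over 9275 genes at 10 CPM and over with an exonic length in the annotation, the median difference went from -0.285 up to 500 bases to 0.069 over 8000 bases. The Spearman correlation of length and difference across these genes was 0.297 in IFE and 0.0194 in the placode-enriched fraction, where genes of 1 library share its RNA and are not independent. The 383 genes of this level whose 27-7 pools lay above all others (4.13%) had a median length of 6951 bases, and the 215 that lay below (2.32%) 3129 bases. By library the order was not that of the codes: the 11-5-2 and 18-5 pools were highest in genes of up to 500 bases and 27-7-4 came next, while 17-5 stood nearer to 27-7-2 and 27-7-3. With the offset for length 9 of 49 ribosomal genes were lower at an unadjusted p, with a median of -0.137, and Rpl13 differed by -0.55. Over all genes 363 were higher and 328 lower at that p with the offset, in place of 447 and 366.

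**Figure D5:**
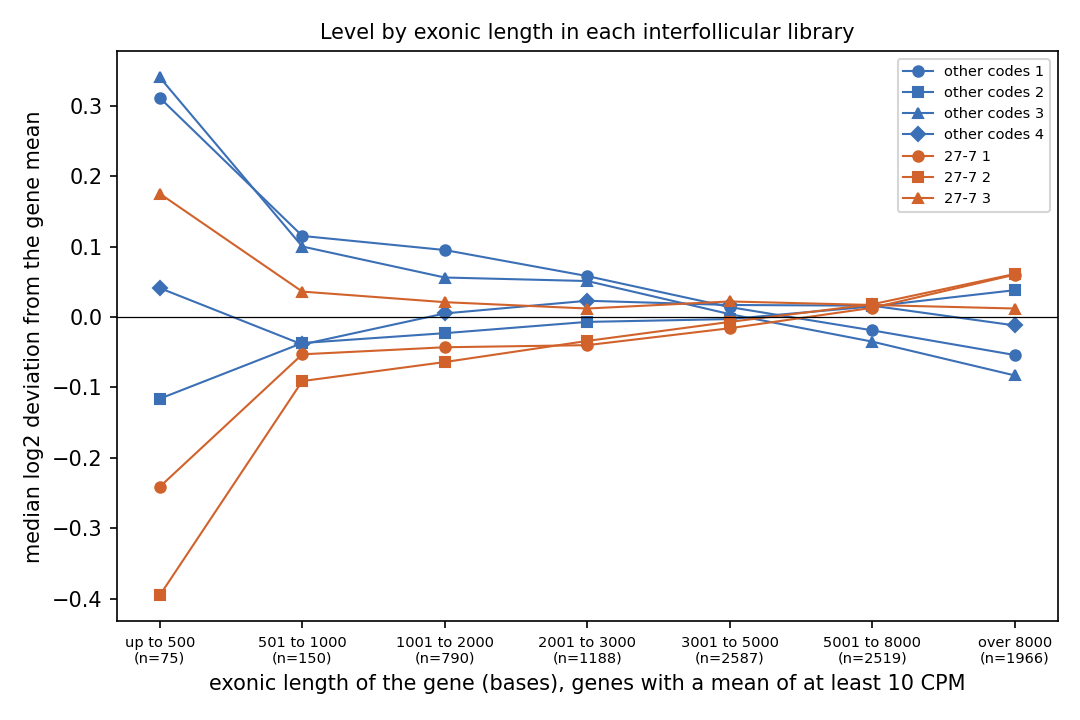
Median log2 deviation from each gene's mean over 7 IFE libraries (vertical axis) by exonic length in 7 bands (horizontal axis, numbers of genes below), for genes at 10 CPM and over. The lines of 11-5-2 and 18-5 fall and those of 27-7-2 and 27-7-3 rise from short to long transcripts, and 27-7-4 runs between them, at 0.175 up to 500 bases and 0.012 over 8000 bases.

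Transcripts of pigment cells had lower means in the 27-7 pools for most members, none past the adjusted threshold. Melanoblasts are the neural crest cells that enter the epidermis and later the hair follicle. In pooled tissue fewer cells of a type and less RNA per cell cannot be told apart. Of 11 melanoblast markers tested, of 12 in the table, 9 lay below 0 (median -0.367), and 3 were lower at an unadjusted p (2.31% of all genes were) and without overlap (2.68% of all genes were), Dct, Pmel and Ednrb. The median was -0.242 without 17-5. The sum was 160, 225, 168 and 226 CPM in the other-code pools and 163, 130 and 165 CPM in the 27-7 pools, so that 17-5 and 1-6-3 stood above the other 5.

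Dct, a melanin synthesis enzyme (ENSMUSG00000022129; chromosome 14, 118012790 to 118052244, minus strand), had 15.5, 32.5, 21.4 and 27.1 CPM in the other-code pools and 15.2, 11.2 and 13.9 CPM in the 27-7 pools. The difference was -0.85 (95% interval -1.32 to -0.38) and the gap between 11-5-2 and 27-7-2 was small. Sox10, a neural crest factor, and Mitf, the melanocyte master regulator, overlapped, with differences of -0.30 and -0.14. Dct was below 0.7 CPM in each placode-enriched library.

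Levels of markers of other cell types ranged widely. Erythroid and muscle markers were at the edge of detection, but the fibroblast list as a whole was not. Among fibroblast markers Col1a1 had 0, 10.8, 9.05 and 2.87 CPM in the other-code pools and 0.733, 1.38 and 4.10 CPM in the 27-7 pools, and Pdgfra stayed under 1 CPM. Of 17 tested, of 20 in the table, 14 lay below 0 (median -0.42). At an unadjusted p 2 were lower, Vim and Crabp1, and 1 higher, Fbn1 (2.31% and 2.83% of all genes were). The median was -0.203 without 18-5, -0.238 without 17-5, -0.668 without 11-5-2 and -0.67 without 27-7-4. Vim, a filament gene that melanoblasts and dermal cells both use, had 175, 180, 183 and 202 CPM against 138, 149 and 151 CPM, without overlap. The sum of the list, 1327 to 1447 CPM against 1376 to 1650 CPM, overlapped, and Col1a1, Pdgfra and Vim held a minor part of it.

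Leukocyte markers summed to 4.44, 7.83, 10.4 and 10.5 CPM in the other-code pools and to 12.9, 12.1 and 11.3 CPM in the 27-7 pools, higher without overlap, and 5 of 14 in the table passed the filter. Their median, 0.386, was 0.042 without 11-5-2, 0.63 without 27-7-2, 0.666 without 17-5, 0.706 without 27-7-3 and 0.991 without 1-6-3. Cd74 and Aif1 were higher at an unadjusted p (2.83% of all genes were) and without overlap (4.00% of all genes were), while Ptprc, the marker that defines leukocytes, was at 0 in 4 of the 7 libraries and under 0.5 CPM in all. Cd74, the invariant chain of MHC class II, had 1.52 to 3.62 CPM against 5.13, 5.20 and 4.96 CPM in IFE and averaged 44.5 and 35.6 CPM in the placode-enriched 27-7 and other-code libraries. Of 3 endothelium and pericyte markers tested, of 13 in the table, 1 lay above 0 and 2 below (median -0.105). The list sums overlapped, at 10.6 to 19.8 CPM against 13.5 to 26.2 CPM. The 1 above, Pecam1, was higher at an unadjusted p (2.83% of all genes were) and without overlap (4.00% of all genes were). It had 0.628 to 1.16 CPM against 0.0423 to 0.459 CPM, with an adjusted p of 0.94 (edgeR). Cdh5 and Emcn were at 0 in all 7. The 1 tested erythroid gene, Hbb-bt, and the muscle and Merkel cell lists had 0 genes at an unadjusted p.

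Y-linked transcripts had the widest spread over the 7 pools of all tested genes at a mean of 10 CPM and over, and they did not follow the code. Ddx3y, on the Y chromosome, had 46, 0, 24.5 and 44 CPM in the other-code pools and 41.3, 22 and 19 CPM in the 27-7 pools. The 17-5 pool had 0 counts of Ddx3y, Eif2s3y and Uty and 7 counts of Kdm5d, which allows up to 0.0842 CPM for each gene at 0 (3 counts, counting error only). It also had the highest Xist, the RNA of X inactivation, at 2773 CPM against 579 to 2062 CPM in the others. The difference of Xist between the codes was 0.14 on the log2 scale (95% interval -1.18 to 1.47).

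The remaining lists held few genes past an unadjusted p. Heat shock and unfolded protein genes had 1 of 31 (Hsp90aa1, lower) and imprinted genes 1 of 23 (Rian, lower), where 2.31% of all genes were lower. The circadian clock and glucocorticoid lists had 0 of 21 and 0 of 13. Schwann cell and neuron markers had 0 of 8, dermal condensate markers 0 of 7 and X-linked escape partners 0 of 6.

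The genes given next lie outside the lists, were chosen after their values were seen, and are not the full set with the smallest p values. Atp5g1, a subunit of the mitochondrial ATP synthase (ENSMUSG00000006057; chromosome 11, 96068852 to 96075670, minus strand), had 139, 120.5, 143 and 120.2 CPM in the other-code pools and 86.3, 87.8 and 77.9 CPM in the 27-7 pools. The groups were well apart, by -0.64 on the log2 scale (95% interval -0.86 to -0.41), at an adjusted p of 0.68 (edgeR) and 0.000308 (DESeq2). Psmb5, a catalytic subunit of the proteasome, had 46.6, 38.2, 44.2 and 37.2 CPM against 26.8, 26.4 and 28 CPM. Its adjusted p was 0.94 (edgeR) and 0.0104 (DESeq2). Ern1, a sensor of unfolded protein in the endoplasmic reticulum, was higher, at 17 to 21.4 CPM against 29.7, 30 and 24 CPM, and Cbx3, a heterochromatin protein, was lower, at 46.4 to 57.4 CPM against 28.7, 31.6 and 43.7 CPM.

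The same comparison was made in the placode-enriched fraction of the same 7 pools. There 0 of 15819 genes passed the adjusted threshold (0.00%), the smallest adjusted p was 0.36, and 1900 genes (12%) had an unadjusted p under 0.05. A test of whether the difference between the codes differed between both fractions, with the pool as a block, called 0 of 17046 genes (0.00%), with 561 at an unadjusted p (3.29%) and a smallest adjusted p of 0.93 (edgeR). No gene was thus shown to differ between the codes more in 1 fraction than in the other.

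Side by side, Rnf43 differed by 0.35 in IFE and 0.60 in the placode-enriched fraction, Fn1 by 0.34 and 0.43, Rplp0 by -0.38 and -0.42, and Psmb5 by -0.62 and -0.54 on the log2 scale. Bmp2 differed by 0.45 and 0.52. Other genes had unlike values in both, as Vim, at -0.34 in IFE and 0.17 in the placode-enriched fraction, and Aif1, at 2.15 and -0.12. The interaction interval for Aif1 ran from 0.62 to 3.89 and its adjusted p was 0.93 (edgeR). List medians were alike in some lists, as hair placode (0.219 in IFE and 0.253) and matrix (0.102 and 0.21). They were unlike in others, as melanoblast (-0.367 and 0.182), fibroblast (-0.42 and 0.17), G2 and M phase (0.052 and -0.23) and structural noncoding RNA (-0.352 and -0.013).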

How the data were processed

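RNA-seq of total RNA was analysed for 7 IFE libraries, with the 7 placode-enriched libraries of the same pools for the last comparison. The authors deposited raw counts, whole numbers of reads for each Ensembl gene with no scaling. The tools HTSeq, STAR (version 1.5 as listed), Trimmomatic, bcl2fastq 2.17.1.14, FastQC and MultiQC and the builds GRCm38 and mm10 are named in the submitters' processing notes. Not given in the sources used here are annotation release, strand setting and treatment of duplicates. Genes overlapping on opposite strands may share reads, which concerns 13 of the 55 genes of the naming rule (among them Krt5, Krt10, Shh, Dct, Spry1, Maml1, Hoxd8, Dkc1, Xist, Sptlc3, Cebpb, mt-Co1) and, among others, Lgals7, Rnf43, Axin2, Icam1, Fras1, Grip1, Fn1, Thbs1, Pmel and Rmrp.

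Symbols, coordinates and exonic lengths came from GENCODE M21 (25949 of 26252 identifiers matched; the 303 others held 0.4363% of counts). Counts were tested with edgeR 4.0.16 (limma 3.58.1, R 4.3.3): filterByExpr (10439 genes removed), TMM, robust quasi-likelihood F tests, Benjamini-Hochberg at 0.05. CPM use TMM-scaled totals within a fraction. Differences are log2 values of 27-7 over other codes (prior count 0.125); standard errors behind the 95% intervals are approximate, from the unshrunk coefficient and F. Library totals of 23821288 to 39478044 counts set the counting error, and amplified reads are not independent molecules. The methods were tested on simulated data. Python 3.11.15, pandas 2.3.3, numpy 2.4.6 and matplotlib 3.10.9 made tables and figures.

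The members, the 46 gene lists (987 of 1031 genes in the table) and the rules were chosen with earlier results of these data known. The naming rule gave up to 15 genes past the threshold at each end of the fold changes (there were 0), in each list up to 4 members past it or else the member with the smallest p, and check genes of fraction, layer and pool (Madcam1, Krt5, Krt14, Krt1, Krt10, Shh, Xist, Ddx3y, Eif2s3y, Kdm5d, Uty). Other genes were named after their values were seen. Alternatives were other scalings and filters, DESeq2 1.42.0, limma-voom, covariates, and each library left out; a length offset, 2 bias-adjusted edgeR fits, robust limma-voom and the removal of 2 libraries together were added after seeing the data.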

Additional observations from a re-analysis of the deposited data

Results flagged for a closer look

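Among 101 values checked in the 4 other-code pools, 2 had 1 pool far from the other 3, where chance alone gives about 1 in 20; the group of 3 was not checked. Fdps was 30.7 CPM in the 18-5 pool and 39.4 to 40.7 CPM in the other 3. Rpl13 was 1294 CPM in the 11-5-2 pool and 983 to 1017 CPM in the other 3.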

How the results depend on the processing

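No paired analysis was possible for the IFE comparison because each title code lies in 1 of its groups. For the difference between fractions, the fit with no replicate block called 0 genes, as did the fit with the block. In IFE 0 genes passed the adjusted threshold in edgeR, except as follows. DESeq2 called 4 (1 higher, the gene model Gm13456, and 3 lower, Atp5g1, Psmb5 and Rnu3a). Leaving out each library called 0 to 4 genes (0 to 1 higher, 0 to 3 lower). There were 3 without 18-5 (Rpl31, Rps3a3 and Mir301, all lower) and 4 without 27-7-4 (Pgam1 higher, Scarna2, Snord17 and Gm23935 lower). The 27-7-4 pool lay inside the range of the other codes for all 4, and 18-5 had the lowest Rpl31 of all pools (200.3 CPM). Calls made by removing the pool that overlapped are no support for a difference. Without 11-5-2 and 27-7-4 together, chosen after seeing that they stood apart, 9 were called (1 higher, 8 lower). That removal also takes out the pools that overlapped for Lgals7 and the 27-7 pool highest in histones, both among the 9, so these calls are no support for a difference. There at an unadjusted p 623 were lower. Unadjusted counts were 1370 with no low-count filter (837 higher) and 341 with structural noncoding RNA as a covariate (141 higher, 200 lower). They ran from 397 without 27-7-2 to 1586 without 18-5 on leaving out each library (183 to 819 higher, 200 to 767 lower), and for the difference between fractions from 278 to 1425. The cause was not tested. The ribosomal list's median lay between -0.232 and -0.137 over all settings, the suprabasal between -0.297 and -0.032, and the basal between -0.065 and 0.072. Below 1 CPM a 2-fold difference was not resolved; counting error and spread between pools were not separated there.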
